A study of Homo sapiens with 10 samples.

Results

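Epithelial-mesenchymal transition (EMT) is the switch by which cells lose junctions and polarity and take on migratory, mesenchymal features. It is driven by a small group of transcription factors: the zinc-finger repressors of the SNAI and ZEB families, which bind E-boxes in the promoters of epithelial genes, and the TWIST basic helix-loop-helix proteins, joined by the PRRX homeobox factors of embryonic mesenchyme. A textbook outcome is the cadherin switch, in which E-cadherin (CDH1) is repressed and N-cadherin (CDH2) takes its place. In neural tissue N-cadherin is the usual cadherin of neuroepithelium, and several of these factors act in neural crest and in cerebellar granule cell precursors, so their RNA alone does not mark a transition. The members here were SNAI1, SNAI2, ZEB1, ZEB2, TWIST1, TWIST2, PRRX1, PRRX2, CDH1 and CDH2. They were taken by gene symbol and not by a rule on measured values, but with earlier results of these data known. They are 10 of the 57820 gene identifiers counted, and all 10 were found.

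RNA was sequenced from D425 and HD-MB03, a pair of established human cell lines from Group 3 medulloblastoma, a cerebellar tumour of childhood in which MYC and photoreceptor genes are often active. The libraries were poly(A)-selected and read counts per gene were deposited for 10 of them. In both lines, cells carried a doxycycline-inducible lentiviral vector (Tet-pLKO-puro) with a short hairpin RNA to CRX, a photoreceptor homeobox factor, or the vector alone, or were parental cells. Populations were stable and polyclonal, and 4 µg/ml doxycycline was given over 72 h. In D425 the control arm holds 2 parental libraries and 1 from vector cells, and the hairpin arm, shCRX, holds 3. In HD-MB03 the control arm holds 1 of each kind and the arm labelled shCRX holds 2. The hairpin carried by each shCRX library (there were 2 designs) is not in the labels. Neither is it stated whether replicates are independent cultures, and the p-values then describe variation among these libraries that may be technical.

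The comparisons asked whether lowering CRX moved these genes, and how far the lines themselves differed. Reads counted in genes ranged from 1956353 to 18061910 per library. The HD-MB03 controls were the shallowest, and 26.4% and 30.9% of their reads did not align, against 4.54% to 7.99% elsewhere. CRX, the targeted gene, was at 20.3 to 25.3 CPM (counts scaled to library size) in D425 shCRX against 29.7 to 64.9 in D425 controls, a called fall (log2 change -1.10, adjusted p = 0.0436). In HD-MB03 it was at 23.5 and 27.7 CPM in the libraries labelled shCRX against 12.3 and 12.5 in controls, which goes against the label, so every HD-MB03 direction below is that of the libraries so labelled. Library numbers split the samples into a lower set (20 to 62: D425 shCRX and HD-MB03 controls) and a higher set (110 to 136: D425 controls and HD-MB03 shCRX). Within a line the number set and the arm cannot be told apart, and this holds for the CRX fall in D425 too. Averaged over the lines, where the number sets are balanced, edgeR gave CRX a log2 change of -0.03 ± 0.23 SE (adjusted p = 0.978). The lines can be compared within each set, but there line and arm cannot be told apart. The summed level of 9 Group 3 markers, among them OTX2 and MYC, was 5952 to 6589 CPM in D425 controls, 3187 to 4865 in D425 shCRX, 7098 to 8900 in HD-MB03 controls and 7371 to 7645 in HD-MB03 shCRX. Of markers of other cell types, 9 fibroblast genes reached 85.4 CPM in D425 shCRX (25.9 to 37.7 in D425 controls) and 6 epithelial genes reached 28.4 CPM in HD-MB03 shCRX replicate 2. The others were lower: 5 endothelial genes summed to at most 2.09 CPM, 6 immune genes to at most 14.7 (AIF1 and CD3E at 0 counts throughout) and 6 glial genes to at most 21.3 (S100B at 0 counts throughout).

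CPM here are relative to the effective library size (total times its TMM factor), and 3 counts correspond to 0.168 CPM in the deepest library and 1.61 CPM in the shallowest. Genes were tested with edgeR's quasi-likelihood test over 16006 genes and called at a Benjamini-Hochberg adjusted p under 0.05. Of the members, 8 passed the filter on low counts, and TWIST2 and CDH1 did not. SNAI2 passed through HD-MB03 alone, where all 4 libraries exceeded the minimum of the filter. PRRX2 passed through the 3 D425 shCRX libraries and the HD-MB03 vector library. Counts over the 8 are therefore not counts over all members.

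**Figure D1:**
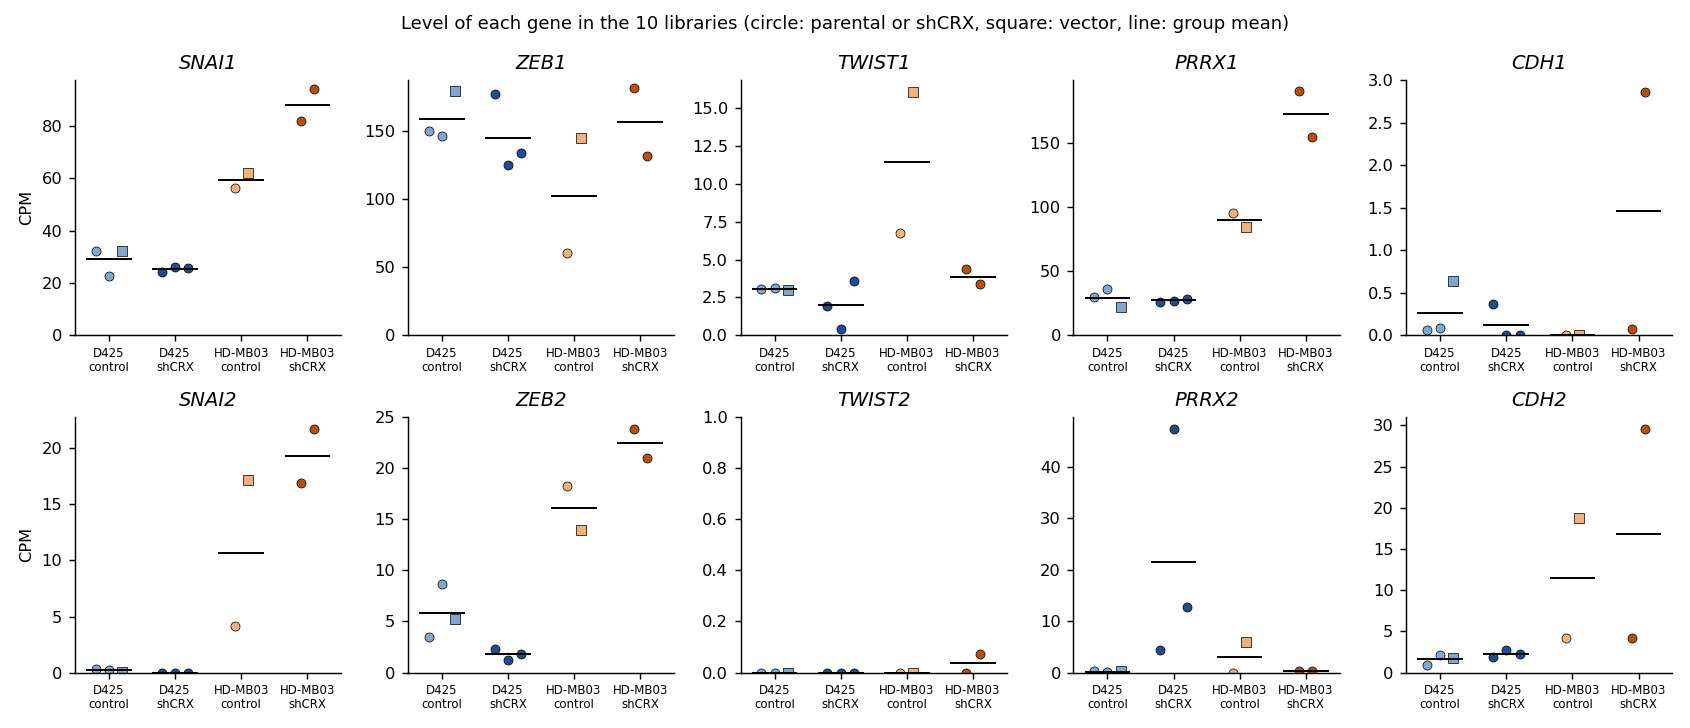
Level of the 10 genes in CPM (vertical axes, each with its own linear scale from 0) in the 10 libraries, by line and arm. SNAI1, SNAI2, ZEB2, PRRX1 and CDH2 lie higher in all 4 HD-MB03 libraries than in all 6 D425 libraries, and PRRX2 is highest in D425 shCRX. How many of all tested genes separate the lines in this way was not counted.

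SNAI1, the Snail repressor of E-cadherin, was well expressed in both lines. In D425 controls it was at 32.3 and 22.8 CPM in the parental libraries and 32.3 in the vector library, and in D425 shCRX at 24.3, 26.1 and 25.8 CPM. In HD-MB03 it was at 56.2 CPM in the parental and 62.2 in the vector library, and at 81.9 and 94.2 CPM in the libraries labelled shCRX. Every HD-MB03 library thus exceeded every D425 library. The D425 arms overlapped, and the HD-MB03 arms did not. The change with shCRX was not called in D425 (log2 change -0.20 ± 0.19 SE, adjusted p = 0.653) or in HD-MB03 (0.57 ± 0.24, adjusted p = 0.239).

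SNAI2, known as Slug and best known from neural crest, differed most between the lines in level. D425 held 5, 3 and 1 counts in parental replicates 1 and 2 and the vector library, or 0.280, 0.242 and 0.091 CPM. The 3 D425 shCRX libraries held 0 counts. HD-MB03 held 8 counts (4.16 CPM) in the parental and 32 (17.2 CPM) in the vector library, and 237 and 303 counts (16.9 and 21.7 CPM) in the shCRX libraries. All HD-MB03 libraries lay above all D425 libraries. Over all libraries, pooled CPM was 124-fold higher in HD-MB03 than in D425 (95% counting interval 64.6 to 271). Within the lower library numbers the pooled gap was 69.0-fold with the D425 shCRX group set at the floor of 3 counts. This takes the 40 counts of the HD-MB03 controls as exact and leaves out the spread between those libraries, so it is not a lower limit. Within the higher numbers it was 88.5-fold (46.3 to 195). The absence of SNAI2 counts from D425 shCRX allows only a weak statement. With that group set at the floor of 3 counts, its pooled CPM was 1.42-fold lower than that of the controls. This takes the 9 control counts as exact, so it is not a lower limit on a fall. The change was not called by edgeR (adjusted p = 0.241).

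ZEB1, a zinc-finger homeodomain repressor expressed in neural progenitors and many brain tumour lines, led the set in D425 by level per kilobase. The D425 controls were at 151, 147 and 179 CPM and D425 shCRX at 177, 125 and 134 CPM. HD-MB03 was at 60.4 CPM in the parental library, 145 in the vector library and 182 and 132 in the libraries labelled shCRX. The arms overlapped in both lines, and the lines overlapped too. No change was called in D425 (log2 change -0.13, 95% interval -0.72 to 0.46, adjusted p = 0.871), in HD-MB03 (0.61, -0.13 to 1.35, adjusted p = 0.382) or between the lines (0.26, -0.21 to 0.74, adjusted p = 0.352). These intervals leave room for changes in either direction. The antisense gene ZEB1-AS1 was at 2.60 to 23.4 CPM. Reads set aside as ambiguous (4.04% to 5.73% per library) are in no gene count. The strand setting is not stated, so either gene may have lost reads where they overlap.

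ZEB2, the ZEB1 paralog also called SIP1, was below ZEB1 per kilobase in every library and fell in D425 shCRX. In D425 controls it was at 3.53, 8.71 and 5.27 CPM, and in D425 shCRX at 2.31, 1.24 and 1.79 CPM (38 counts against 229 in the controls). The D425 arms did not overlap. HD-MB03 was higher, at 18.2 CPM in the parental library, 13.9 in the vector library and 23.9 and 21.0 in the libraries labelled shCRX. In D425 the log2 change was -1.64 ± 0.40 (adjusted p = 0.0436), close to the threshold. Leaving out any 1 library other than D425 parental replicate 1 ended the call, with log2 changes of -1.96 to -1.27. The HD-MB03 value was 0.48 ± 0.43 (adjusted p = 0.603), and the difference between the lines in this response was not called (-2.12 ± 0.58, adjusted p = 0.0612). Averaged over the lines, where the number sets are balanced, the ZEB2 change was -0.58 ± 0.29 by edgeR (adjusted p = 0.412).

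Promoter sequence was looked up for the members that the results turn on, from RefSeq on GRCh38.p14, as 250 bases before to 50 after a start. Of the 10 members 6 were matched, with 13 starts in all: 7 for ZEB1, 2 for CDH2 and 1 each for ZEB2, TWIST2, PRRX1 and PRRX2. SNAI1, SNAI2, TWIST1 and CDH1 were not matched. Both strands were searched for TAATCC, the core bound by CRX and OTX homeodomains. They were also searched for CAGGTG, the E-box of SNAI and ZEB factors, and no match of one motif overlapped the other. Among 35116 promoters of that length, 6.36% held TAATCC and 20.6% held CAGGTG. Of the 13 member starts, 1 held TAATCC and 2, both of ZEB1, held CAGGTG. The ZEB2 and PRRX2 windows are shown because these genes were called in D425 shCRX, and those of ZEB1 and PRRX1 because they are their paralogs. Whether paralogs differed from each other in response was not tested. Capitals mark a motif, each sequence runs 5′ to 3′ on the strand of its gene, and the ZEB1 start shown is the one with the most E-boxes, 3 of them. The positions are chr10:31318966-31319265 (+) for ZEB1, chr2:144520070-144520369 (-) for ZEB2, chr1:170663881-170664180 (+) for PRRX1 and chr9:129665397-129665696 (+) for PRRX2.
ZEB1: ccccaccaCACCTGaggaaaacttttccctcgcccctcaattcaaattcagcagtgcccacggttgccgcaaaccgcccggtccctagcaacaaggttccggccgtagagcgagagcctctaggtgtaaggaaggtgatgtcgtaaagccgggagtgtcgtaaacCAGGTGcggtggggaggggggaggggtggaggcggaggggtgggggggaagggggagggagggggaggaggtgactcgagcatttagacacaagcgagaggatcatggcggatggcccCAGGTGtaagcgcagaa
ZEB2: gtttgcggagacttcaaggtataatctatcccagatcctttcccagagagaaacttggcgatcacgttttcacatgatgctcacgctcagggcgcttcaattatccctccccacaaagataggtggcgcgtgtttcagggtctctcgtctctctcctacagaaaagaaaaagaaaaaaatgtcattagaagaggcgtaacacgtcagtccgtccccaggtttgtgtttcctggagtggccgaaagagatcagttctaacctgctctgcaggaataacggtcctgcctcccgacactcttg
PRRX1: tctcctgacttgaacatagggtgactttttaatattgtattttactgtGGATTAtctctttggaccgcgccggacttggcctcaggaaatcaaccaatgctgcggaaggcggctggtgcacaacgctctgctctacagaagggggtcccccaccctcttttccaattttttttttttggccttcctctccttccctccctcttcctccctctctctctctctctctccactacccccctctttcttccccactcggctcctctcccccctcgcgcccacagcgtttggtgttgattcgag
PRRX2: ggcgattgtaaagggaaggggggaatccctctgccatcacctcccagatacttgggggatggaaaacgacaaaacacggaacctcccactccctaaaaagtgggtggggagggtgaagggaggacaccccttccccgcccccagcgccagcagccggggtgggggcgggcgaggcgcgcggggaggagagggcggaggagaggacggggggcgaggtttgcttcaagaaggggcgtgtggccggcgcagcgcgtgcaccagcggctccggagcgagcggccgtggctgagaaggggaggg
PRRX1 held 1 TAATCC on the reverse strand, and the windows of ZEB2 and PRRX2 held neither motif. G and C made up 68.3% of the PRRX2 window, 61.7% of that of ZEB1, 53.0% of that of PRRX1 and 49.0% of that of ZEB2. A match is a description of these letters and says nothing of binding, and so is the absence of one.

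TWIST1, a basic helix-loop-helix factor that pairs with E-proteins, was low in D425 and variable in HD-MB03. It was at 3.02, 3.15 and 3.00 CPM in D425 controls and at 1.94, 0.414 and 3.58 CPM in D425 shCRX, where replicate 2 rested on 2 counts. In HD-MB03 it was at 6.77 CPM in the parental and 16.1 in the vector library, and at 4.36 and 3.37 CPM in the libraries labelled shCRX. The D425 arms overlapped. In HD-MB03 both shCRX libraries lay below both controls, and edgeR did not call the difference (log2 change -1.56 ± 0.64, adjusted p = 0.238). Its paralog TWIST2 had 1 count in all, in HD-MB03 shCRX replicate 2. In D425 0 counts were found over the 6 libraries, which allows up to 0.0493 CPM.

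PRRX1, a paired-type homeobox factor of limb and craniofacial mesenchyme, was steady in D425 and higher in HD-MB03. D425 controls were at 29.6, 35.9 and 22.0 CPM and D425 shCRX at 26.2, 26.9 and 28.4 CPM, within the range of the controls. HD-MB03 was at 95.2 CPM in the parental library, 84.7 in the vector library and 191 and 155 in the libraries labelled shCRX. The HD-MB03 arms did not overlap, and the log2 change was 0.94 ± 0.25 (adjusted p = 0.0841), not called by edgeR. DESeq2 called it (0.87, adjusted p = 0.0276). In D425 the log2 change was -0.11 (95% interval -0.54 to 0.33), and the difference between the lines in the response was -1.05 ± 0.32 (adjusted p = 0.0844).

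PRRX2, the paralog of PRRX1, showed the widest change of the set under shCRX. It was nearly silent in D425 controls, with 5, 1 and 3 counts (0.280, 0.081 and 0.273 CPM). D425 shCRX libraries held 47, 229 and 50 counts, or 4.34, 47.4 and 12.8 CPM. All 3 therefore exceeded every control, and they differed from one another by up to 10.9-fold (95% counting interval 7.95 to 15.3). Pooled over libraries the D425 rise was 76.3-fold (39.7 to 168, counting error alone), and 229 of the 326 shCRX counts came from replicate 2. With the spread among libraries included, edgeR gave a log2 change of 6.54 ± 1.07 (95% interval 4.20 to 8.87, adjusted p = 0.00942). An exact two-sided permutation test of log2 CPM gave p = 0.1, the smallest that 3 against 3 libraries allow. The call held when each of the 10 libraries was left out in turn, with log2 changes of 5.17 to 7.02. It was lost after thinning to equal depth (6.39, adjusted p = 0.0588), with vector controls alone (6.18, adjusted p = 0.313) and on the 6 numbered libraries with a replicate block (6.29, adjusted p = 0.178) or without it (6.97, adjusted p = 0.121).

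In HD-MB03 PRRX2 had 0 counts in the parental library, 11 in the vector library (5.90 CPM), and 4 and 3 in the libraries labelled shCRX (0.286 and 0.215 CPM). The control value thus rested on the vector library alone. The HD-MB03 change was not called (log2 change -3.48 ± 1.53, adjusted p = 0.272), and without the vector library it was 4.40 against a control with 0 counts, which is no bound. The transcript of PRRX2 is the richest in G and C of the members (69.0%, against a median of 48.6% over tested genes). That of ZEB2, called lower in D425 shCRX, had 39.1%. Log2 changes in D425 shCRX went with G and C content across genes (Spearman's rho 0.278 over 15581 genes). In HD-MB03 the trend was reversed (rho -0.358), and for the difference in response rho was 0.404. With an offset for G and C content and length the D425 change of PRRX2 was 5.72 (adjusted p = 0.0296). The summed CPM of 9 fibroblast markers was 51.9 to 85.4 in D425 shCRX against 25.9 to 37.7 in D425 controls, mostly PDGFRB (39.3 to 74.0 against 17.2 to 29.3), while FAP had no counts in any library. The part of these markers in the PRRX2 result was not tested.

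**Figure D2:**
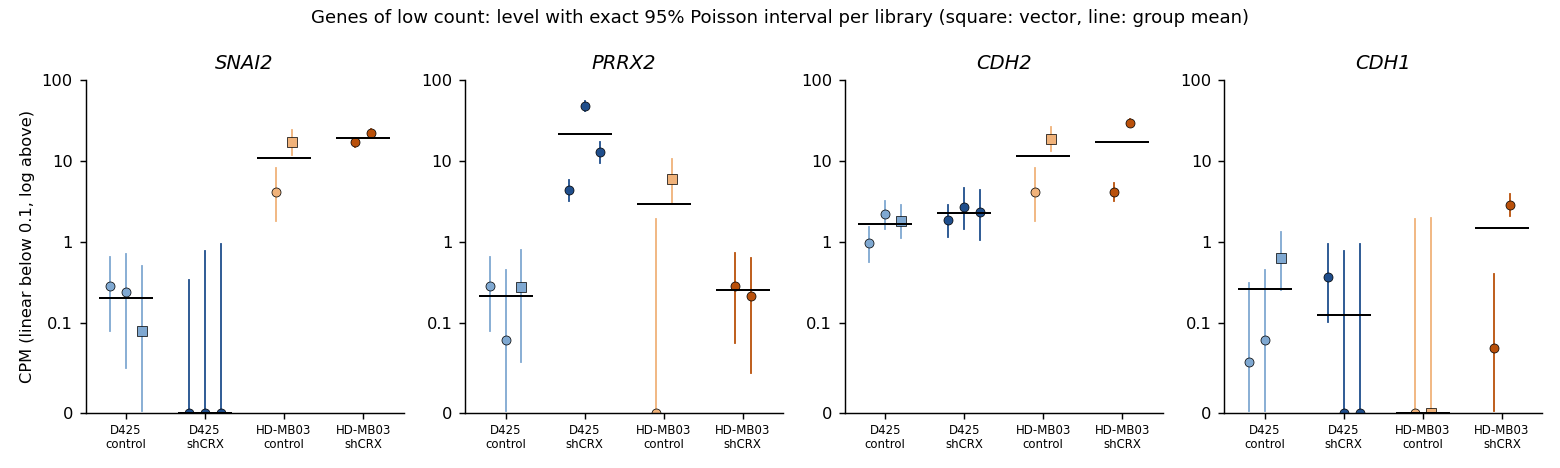
Level in CPM (linear below 0.1, log scale above) of SNAI2, PRRX2, CDH2 and CDH1, with exact 95% Poisson intervals that cover counting error alone. The PRRX2 intervals of the 3 D425 shCRX libraries lie above those of the D425 controls, and CDH2 and CDH1 differ between the 2 HD-MB03 shCRX libraries beyond their intervals.

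CDH1, E-cadherin, was close to absent in both lines. D425 controls held 1, 1 and 7 counts and D425 shCRX libraries 4, 0 and 0, so no D425 library exceeded 0.636 CPM. HD-MB03 controls held 0 counts, which allows up to 0.792 CPM over the pair. Of the libraries labelled shCRX in HD-MB03, replicate 1 held 1 count (0.071 CPM) and replicate 2 held 40 (2.86 CPM), a ratio of 40.1 with a 95% counting interval of 6.79 to 1622. The sum of other epithelial genes went the same way in this library, where 4 of these 6 had counts. The summed CPM of EPCAM, KRT8, KRT18, KRT19, CLDN4 and ESRP1 was 28.4 in replicate 2 and 0.286 in replicate 1, against 0.520 and 1.61 in the controls. KRT8 accounted for most of it, at 22.1 CPM. The source of these reads was not tested.

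CDH2, N-cadherin, was above CDH1 per kilobase in every library and lower in D425 than in HD-MB03. It was at 0.952, 2.18 and 1.82 CPM in D425 controls and at 1.85, 2.69 and 2.30 CPM in D425 shCRX, with overlapping arms. HD-MB03 was at 4.16 CPM in the parental and 18.8 in the vector library, and at 4.15 and 29.6 CPM in shCRX replicates 1 and 2. Each HD-MB03 arm thus held 1 low and 1 high library. The change with shCRX was 0.46 ± 0.75 in D425 (adjusted p = 0.818) and 0.56 ± 0.81 in HD-MB03 (adjusted p = 0.763), neither called. The HD-MB03 value turned to -1.45 without shCRX replicate 2 and was 2.04 without the vector library.

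Between D425 shCRX and D425 controls, 2 of the 8 tested members were called, PRRX2 higher and ZEB2 lower. Of all tested genes 2.97% were called, 1.61% higher and 1.37% lower. Higher genes made up 54.0% of the calls, or 70.9% when library totals replaced the scaling, which moved the median log2 change of all genes from 0.02 to 0.15. The median log2 change was -0.16 over the 8 and 0.02 over all tested genes, and it stayed -0.16 with SNAI2 in shCRX set at the floor of 3 counts. The arms did not overlap for 3 tested members, ZEB2, SNAI2 and PRRX2, against 23.0% of all tested genes (11.5% in each direction). For SNAI2 this rests on 0 counts in the shallower shCRX libraries. Their upper counting limits, 0.340 to 0.944 CPM, lie above every control value (0.091 to 0.280 CPM). The 6 epithelial markers summed to 8.68 to 15.1 CPM in D425 shCRX and 2.80 to 9.73 in D425 controls, and their part in these changes was not tested. In HD-MB03 0 of 8 members were called, against 1.51% of all genes (0.262% higher, 1.24% lower). At an unadjusted p under 0.05 there were 4 (SNAI1, TWIST1, PRRX1 and PRRX2), and DESeq2 called 1, PRRX1. Over all 16006 tested genes these numbers were 2747 and 806. The HD-MB03 arms did not overlap for 4 tested members, ZEB2, SNAI1 and PRRX1 (higher in libraries labelled shCRX) and TWIST1 (lower), against 52.3% of all genes, 30.5% higher and 21.8% lower.

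Taking the mean of both lines, 0 of 8 members were called, against 0.225% of all genes (0.0187% higher, 0.206% lower). At an unadjusted p under 0.05 there were 2, TWIST1 and PRRX1, and DESeq2 called 0. Over all 16006 tested genes these numbers were 2118 and 401. When the response itself was compared between the lines, 1 of 8 was called, against 4.16% of all genes (2.67% higher, 1.49% lower). This was PRRX2, with a D425 minus HD-MB03 difference of 10.01 ± 1.96 log2 units (adjusted p = 0.0175). That size rests on the 11 counts of the HD-MB03 vector library, without which the difference was 2.13 and not called (adjusted p = 1). It was also not called without either of the HD-MB03 shCRX libraries (10.20 and 9.81). The intervals for the other 7 members are wide, so a missing call does not show that the lines responded alike. Comparing the response between the lines also sets the lower against the higher library numbers, and these cannot be told apart.

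**Figure D3:**
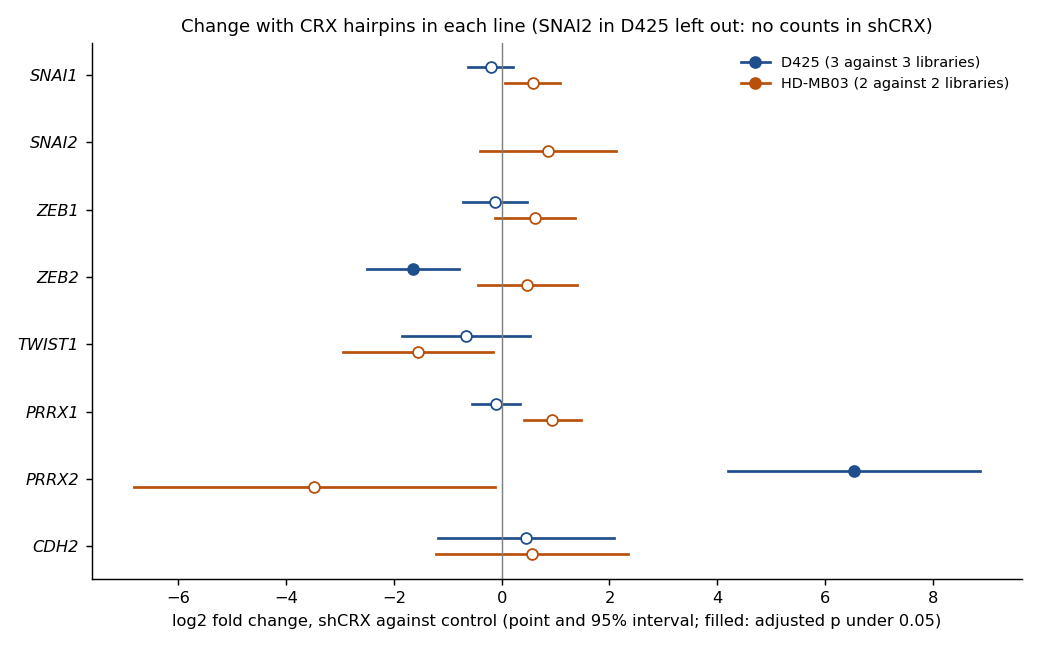
Log2 fold change of shCRX against control libraries (horizontal axis) for the tested genes in D425 and HD-MB03, with 95% intervals. Filled points, PRRX2 (6.54) and ZEB2 (-1.64) in D425, passed the adjusted p, and no HD-MB03 point did.

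The difference between the lines was broader than that with shCRX. Over the mean of both arms, 6 of the 8 tested members were lower in D425 than in HD-MB03 and 0 were higher. Of all tested genes 46.0% were called, 21.6% lower in D425 and 24.4% higher. PRRX1 had a log2 difference of -2.15 ± 0.16 (adjusted p = 3.29e-07). SNAI1 followed with -1.41 ± 0.15 (1.02e-05), and ZEB2 with -2.53 ± 0.29 (1.83e-05). Each of these rested on 4 HD-MB03 libraries that all lay above all 6 D425 libraries. How many of all tested genes separate the lines in this way was not counted. CDH2 differed by -2.86 ± 0.55 (adjusted p = 0.00131) and TWIST1 by -1.45 ± 0.42 (0.0125). SNAI2, the other member called, entered the test only through HD-MB03, the line where it is high. Its call and its place in the counts of members, here and within the number sets, are therefore no support. The pooled ratio of SNAI2 is given above. The median was -1.80 over the 8 and 0.05 over all tested genes.

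The lines could also be set against each other within a set of library numbers. There each line is present by a single arm, so line and arm cannot be told apart. In the lower set (D425 shCRX against HD-MB03 controls) the same 6 members were called, against 30.7% of all genes (14.7% lower). In the higher set (D425 controls against HD-MB03 shCRX) 5 of them were, against 31.2% (15.8% lower, 15.5% higher). TWIST1 was the exception, at -2.56 ± 0.62 in the lower set and -0.34 ± 0.55 in the higher (adjusted p = 0.00848 and 0.685). PRRX1 was -1.73 and -2.57, SNAI1 -1.22 and -1.59, ZEB2 -3.11 and -1.95 and CDH2 -2.35 and -3.37 in the lower and higher sets. PRRX2 was not called in either, at 2.86 ± 1.13 and -0.20 ± 1.48.

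**Figure D4:**
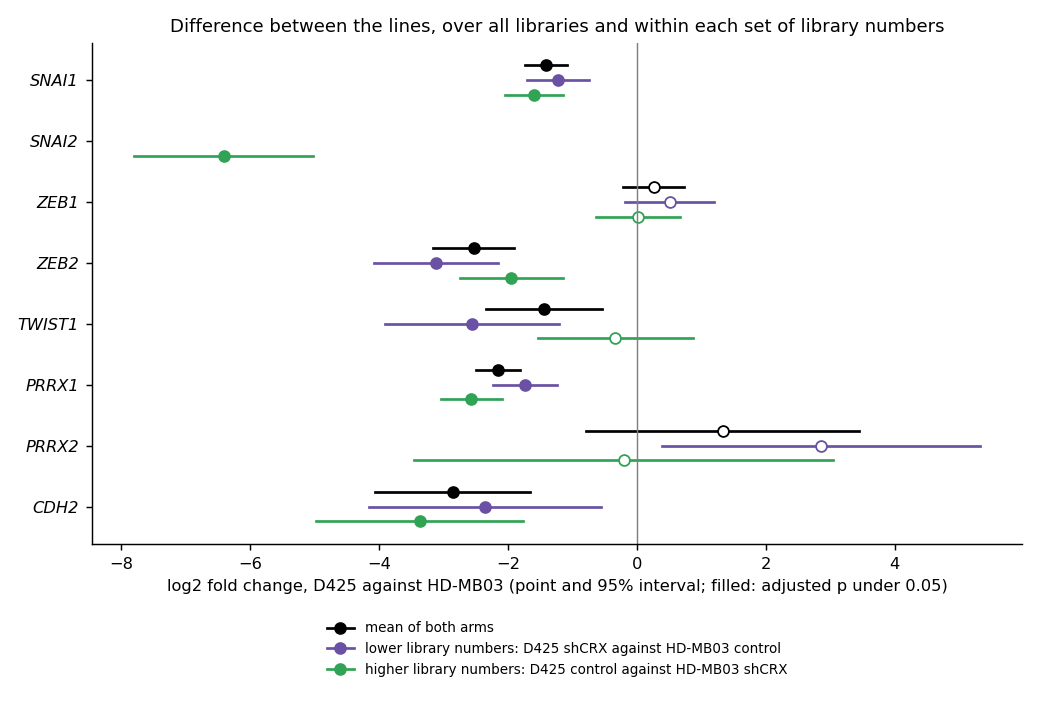
Log2 fold change of D425 against HD-MB03 (horizontal axis) with 95% intervals, over both arms and within each set of library numbers. SNAI2 is drawn only where no group had 0 counts. PRRX1, SNAI1, ZEB2 and CDH2 lie below 0 in all 3 comparisons, and TWIST1 passes in 2 of them.

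Levels per kilobase of transcript, which allow genes to be compared, put different members first in each line. In D425 ZEB1 led with 24.3 ± 3.55 CPM per kb (SD, n = 6), then SNAI1 with 16.2 ± 2.41. PRRX1 was at 6.58 ± 1.07. PRRX2 has no single place in D425, since it was at 0.161 ± 0.086 CPM per kb in controls (SD, n = 3) and 16.4 ± 17.4 in shCRX (SD, n = 3), where its spread overlapped the levels of ZEB1, SNAI1 and PRRX1. TWIST1 was at 1.51 ± 0.70, CDH2 at 0.453 ± 0.136 and ZEB2 at 0.397 ± 0.292 CPM per kb, the last pair within their spread. SNAI2, CDH1 and TWIST2 were at or under 0.042. In HD-MB03 SNAI1 led with 43.7 ± 10.4 CPM per kb (SD, n = 4), followed by PRRX1 with 30.7 ± 11.7 and ZEB1 with 20.7 ± 8.12, neighbours that overlap in spread. SNAI2 at 6.17 ± 3.11, TWIST1 at 4.59 ± 3.48, CDH2 at 3.27 ± 2.86, ZEB2 at 2.01 ± 0.44 and PRRX2 at 1.22 ± 2.19 also overlap one with the next. CDH1 and TWIST2 were the lowest.

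Some members differed between single HD-MB03 libraries of the same arm. Against the parental library, the vector library was higher for CDH2 (4.51-fold, 95% counting interval 2.05 to 11.2), SNAI2 (4.12-fold, 1.86 to 10.3), ZEB1 (2.40-fold) and TWIST1 (2.38-fold). For PRRX2 it was 3.78-fold higher with the 0 counts of the parental library set at the floor of 3 and the 11 of the vector library taken as exact. SNAI1, PRRX1 and ZEB2 differed by less than counting error, with ratios of 1.11, 0.889 and 0.765. Across all tested genes the exact Poisson intervals of these libraries did not overlap for 16.4%, and 5.49% were at least 4-fold apart. In the shCRX pair, CDH2 was 7.14-fold higher in replicate 2 (5.41 to 9.56), where the intervals did not overlap for 34.9% of tested genes and 3.92% were at least 4-fold apart. SNAI1 (1.15-fold) and SNAI2 (1.28-fold) were nearer in that pair. With 1 library on each side these values compare libraries, not conditions.

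Partner genes of the members were described from 10 lists of related genes, a few of which share members such as CDH11 and SOX9. The counts stand beside 2.97% of all tested genes called in D425 shCRX and 1.51% in HD-MB03, and with few genes a list they are descriptions alone. For the E-proteins and ID proteins, which pair with TWIST or titrate its partners away, 2 of 7 tested genes rose in D425 shCRX, ID1 (log2 change 2.29 ± 0.49, adjusted p = 0.0317) and ID3 (2.52 ± 0.35, adjusted p = 0.00327). ID3 was at 117 to 247 CPM in D425 shCRX against 18.6 to 34.9 in controls. Both ID genes are also known targets of BMP signalling. The most abundant members of the list per kb, ID1 and TCF3, were expressed in all libraries. Of 12 tested co-repressors of SNAI and ZEB, such as SMARCA4 and KDM1A, and of 16 other EMT transcription factors, such as SOX4 and TEAD4, 0 were called in D425 shCRX. At an unadjusted p under 0.05 there were 3 co-repressors and 8 of the EMT factors, and DESeq2 called 1 and 0. Of all 16006 tested genes, 2768 had such a p in D425 shCRX and DESeq2 called 986.

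Mesenchymal markers did not move one way in D425 shCRX. Of 25 tested, 1 rose and 2 fell: PDGFRB, a receptor of mesenchymal cells (log2 change 1.20 ± 0.27), COL6A1, a collagen VI chain (-2.30 ± 0.40), and CD44, a hyaluronan receptor. CD44 had 35 counts in D425 controls and 0 in shCRX. With shCRX set at the floor of 3 counts and the 35 taken as exact, it was 5.54-fold lower there. Their median log2 change was -0.02, against 0.02 for all tested genes. On the epithelial side, 1 of 12 tested adhesion and keratin genes fell, out of 24 listed: DSP, which encodes the desmosome protein desmoplakin (-3.83 ± 0.77, adjusted p = 0.0218), and 0 of 4 epithelial splicing and transcription factors were called. Among 9 other classical cadherins CDH24 rose (2.11). Of 8 catenins and associated genes, 12 mesenchyme homeobox and basic helix-loop-helix genes and 3 neural crest genes, 0 were called. At an unadjusted p under 0.05 these held 2, 4 and 2 genes (the epithelial factors 0), and DESeq2 called 1, of the mesenchyme genes. Over the 10 lists, 7 of 105 tested genes were called in D425 shCRX, against 2.97% of all tested genes. In HD-MB03 0 of 105 were called by edgeR and 7 by DESeq2, and 18 had an unadjusted p under 0.05. Of all 16006 tested genes, edgeR called 1.51% there, DESeq2 called 806, and 2747 had such a p.

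Between the lines 59 of the 105 tested genes of the lists were called, in both directions, against 46.0% of all tested genes (21.6% lower in D425, 24.4% higher). No list is set apart from that background by a test. Of 12 tested mesenchyme homeobox and basic helix-loop-helix genes, 6 were lower in D425 and 1 higher, with a median log2 difference of -1.03 against 0.05 for all genes, or -1.30 with HAND1, which had no counts in either control group, at its pooled ratio. TBX15 (-6.78 ± 0.40), HAND2 (-3.91 ± 0.36) and SHOX2 (-1.56 ± 0.42) were lower in D425, as were PRRX1 and TWIST1, and TBX18 was higher (3.69 ± 0.90). Of 25 mesenchymal markers 8 were lower and 7 higher, among them COL5A1 (-3.20 ± 0.17) and PDGFRB (3.40 ± 0.27). VIM, the intermediate filament vimentin, was higher in D425 (0.71 ± 0.15). Of 9 other cadherins 3 were lower in D425, CDH11 (-2.65), CDH15 (-3.85) and CDH22 (-4.97), and 1 was higher, CDH8, with 2013 counts over the D425 libraries and 5 over those of HD-MB03. Of 16 other EMT factors 7 were lower and 3 higher. SOX9, which works with SNAI2 in neural crest, had 8 counts in D425 and 310 in HD-MB03 (pooled ratio 74.3), and YAP1 was higher in D425 (2.15 ± 0.23).

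**Figure D5:**
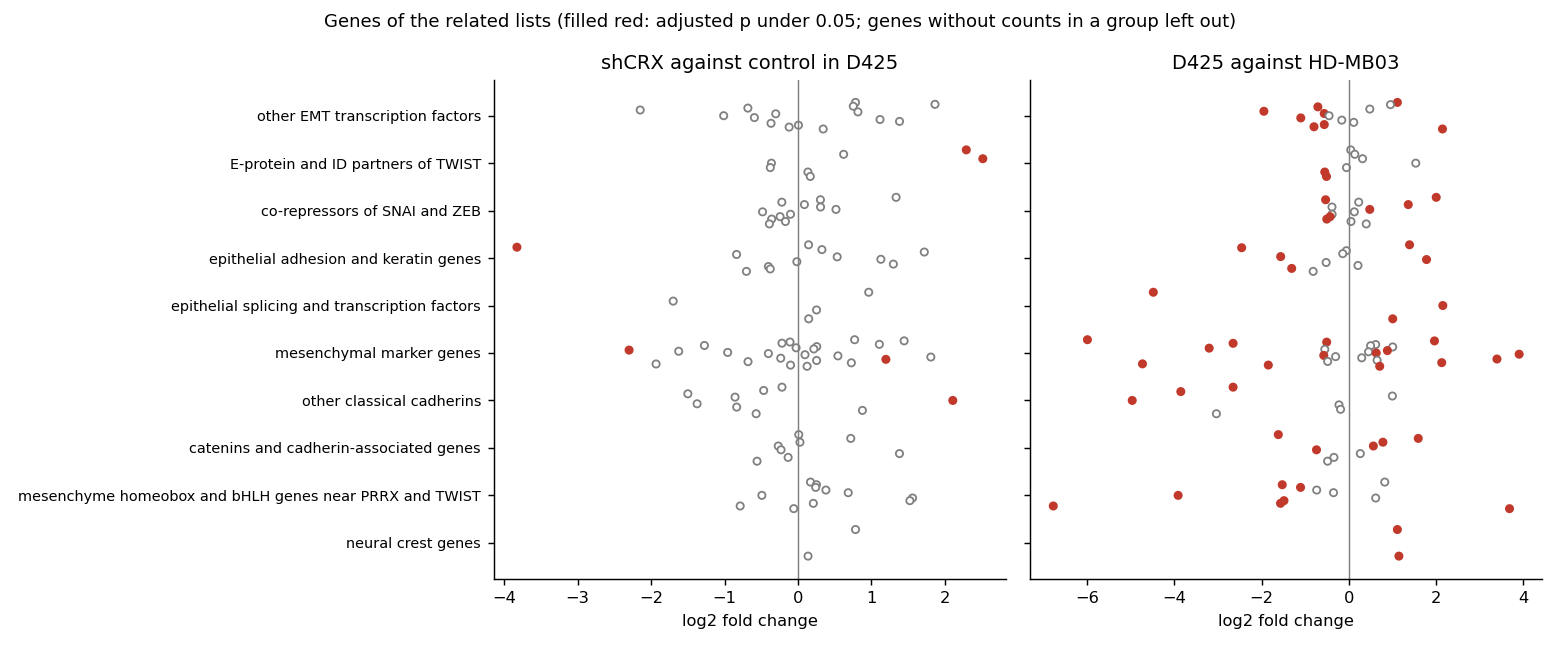
Log2 fold change (horizontal axes) of the tested genes of 10 related lists, for shCRX against control in D425 and for D425 against HD-MB03, without genes that had 0 counts in a group. Called genes are few on the left, with ID1 and ID3 to the right of 0, and lie on both sides of 0 on the right.

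Genes whose log2 CPM followed a member most closely were taken from 12209 protein-coding genes by Pearson's r, as a description without a test, since libraries share line, arm and depth. Over 10 libraries PRRX2 was most like FGF5 (r = 0.956), AKR1C1 (0.935) and GREM1 (0.924), and over the 6 D425 libraries most like NPW (0.995), SQSTM1 (0.994) and PGF (0.993). ZEB2 was most like PRR3, PROM1 and INKA2 (0.984, 0.984 and 0.982), and PROM1 was again among the nearest 3 over D425 alone (0.980). SNAI2 was most like MLH3, ODF2L and NIPAL2 (each 0.987). PRRX1 was most like LYPD6 (0.985) and SNAI1 most like RTN2 (0.985). For TWIST1 the nearest was RPL4 (0.970), for ZEB1 GCC2 (0.978) and for CDH2 ZNF180 (0.935). No member was among the nearest 3 of another.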

How the data were processed

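Read counts per gene, made by the authors and deposited without normalization, were used as they stand. The submitters' processing notes list bcl2fastq, HISAT2, HTSeq, DESeq2 and the build GRCh37 (hg19), with no roles. Versions, annotation and strand setting are not given in the sources used here. Summary entries were left out. Of 57820 identifiers 52338 received a symbol from a GENCODE annotation of another build, used for names, transcript length and G and C content alone.

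The main test was edgeR 4.0.16 under R 4.3.3 (TMM scaling, filterByExpr with 4 line-by-arm groups, robust quasi-likelihood fit, 6 residual degrees of freedom, two-sided, Benjamini-Hochberg adjustment over 16006 genes, called under 0.05), checked on simulated data. DESeq2 1.42.0, limma 3.58.1, other scalings, no filter, thinning, leaving out each library, other controls and line-only fits were alternatives. The offset for G and C content and length and the fit without both HD-MB03 controls were chosen after seeing the data. Intervals are 95%. Those of counts and of ratios of counts are exact and cover counting error alone. Those of log2 changes come from the edgeR fit, are approximate and include variation among libraries. Floors are 3 counts per group or library, and a ratio to a floor takes the counts of the other side as exact. Correlations used a prior count of 0.5 and genes with a mean of at least 1 CPM.

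Members, lists and tests were chosen with earlier results of these data known. Named genes were all members, up to 4 called genes and the 2 most abundant per kb of each list, the 3 genes most like a member, and CRX. The text gives a selection. Paralogs can share reads, and overlapping genes can lose reads that were set aside as ambiguous.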

Additional observations from a re-analysis of the deposited data

Results flagged for a closer look

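By an edgeR test, the PRRX2 difference between libraries labelled shCRX and controls was not the same in both lines. D425 minus HD-MB03 was 10.01 ± 1.96 on the log2 scale (adjusted p = 0.0175). This test also sets the lower against the higher library numbers, so a response particular to a line and the number set cannot be told apart. Averaged over the lines, where the number sets are balanced, edgeR gave PRRX2 a log2 change of 1.53 ± 0.98 (adjusted p = 0.53). The difference in response was called under 11 of 19 alternatives. Without the HD-MB03 vector library it was 2.13 (adjusted p = 1), and it was also not called with limma-voom, after thinning, with vector or parental controls alone, with the offset for G and C content and length, or without either HD-MB03 shCRX library. CRX itself was higher in the HD-MB03 libraries labelled shCRX (23.5 and 27.7 CPM) than in their controls (12.3 and 12.5 CPM), so the HD-MB03 side does not describe lowered CRX. PRRX2 was higher in 3 of 3 D425 shCRX libraries than in any D425 control. In HD-MB03 the libraries labelled shCRX held 4 and 3 counts, between the 0 of the parental and the 11 of the vector library, so that side has no settled direction.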

How the results depend on the processing

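The 6 members lower in D425 than in HD-MB03 were called under 21 of 21 alternatives for SNAI1, SNAI2, ZEB2, PRRX1 and CDH2 and under 16 of 21 for TWIST1, and PRRX2 turned to -0.20 within the higher library numbers. SNAI2 passed the main filter through HD-MB03 alone, so its calls are no support. PRRX2 in D425 was called under 19 of 23 alternatives and ZEB2 under 4 of 23, each with its direction kept.

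In D425 the 2 called members became 1 with library totals, limma-voom, parental controls alone, the libraries of the line alone, the offset for G and C content and length, or without both HD-MB03 controls, and 0 after thinning to equal depth or with vector controls alone. Leaving out 1 library gave 1 to 2. In HD-MB03 0 became 1 with no filter and with DESeq2. For the difference in response 1 became 4 with no filter and 2 with DESeq2, and 0 with limma-voom, thinning, vector controls alone, parental controls alone and the offset, and leaving out 1 library gave 0 to 2. Over all genes the calls ranged from 2 to 1211 in D425 (476 as reported) and from 1 to 806 in HD-MB03 (241 as reported).

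Only the replicate numbers are shared by the D425 parental and shCRX libraries, whose deviations correlated at 0.0088. With a replicate block, fitted on the 6 numbered libraries, 0 members were called (ZEB2 -1.63, PRRX2 6.29), and 0 without the block on those libraries. Over all genes the block left 2 calls and its absence 20.

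Values that changed sign were all uncalled. In D425 ZEB1 turned to 0.016 with library totals, 0.026 with no replicate block and 0.064 with the offset. PRRX1 there turned to 0.023 with library totals, 0.28 with vector controls alone and 0.016 with the offset, and ran from -0.27 to 0.025 with 1 library left out. In HD-MB03 CDH2 turned to -0.18 with vector controls alone and ran from -1.45 to 2.04 with 1 library left out. PRRX2 turned to 4.39 with parental controls alone and ran from -4.47 to 4.40. Averaged over lines, SNAI2 turned to 0.24 after thinning, ZEB1 to -0.12 with vector controls alone (-4.69e-04 to 0.63 with 1 library left out), and CDH2 ran from -0.50 to 1.24. The CDH2 difference in response turned to 0.27 with limma-voom, 0.70 after thinning, 0.45 with vector controls alone and 0.32 with the offset, and ran from -1.59 to 1.90. The cause was not tested. Thinning left SNAI2 in D425 without counts, so it gave no value. With 1 library left in an arm, that library was assumed to vary like the other groups. Depth limits the HD-MB03 controls most.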
